A study of Mus musculus with 4 samples.

Results

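The 10 genes described here encode granule proteins and hormones of enteroendocrine cells, the scattered hormone-secreting cells of the gut epithelium. They were taken by name, from knowledge of the cell type and with earlier results of these data known. They are Chga, Chgb, Scg2, Scg3, Cpe, Tac1, Tph1, Cck, Sct and Gip. All 10 had at least 1 named probe, and 9 of them were among the 24862 genes that passed the signal filter, while Tph1 did not pass. They were measured in Lgr5-high intestinal stem cells sorted by flow cytometry from Ifnar1-/-:Lgr5-EGFP-Ires-CreERT2 mice and from Lgr5-EGFP-Ires-CreERT2 control mice. Cells without the receptor subunit IFNAR1 cannot respond to type I interferons. In both genotypes the Lgr5 locus carries a green fluorescent reporter joined to an inducible Cre recombinase. Mice of both genotypes received poly(I:C), a double-stranded RNA mimic that provokes interferon, by intraperitoneal injection at 2 mg/kg daily for 1 week, so the comparison has no untreated arm. The daily schedule is that of the series text, while the sample labels give the time as 1 week after injection, and the difference is not resolved here. The labels give neither age nor sex. Each genotype had 2 samples, and each sample had its own single-colour array. Slide 1 held replicate 1 of both genotypes and slide 2 held replicate 2. The slide is inferred from a scan identifier that paired arrays share in the file headers, whereas the header barcode differs between all arrays. Whether the samples are separate animals or pools is not stated in the labels, so p-values cover only the spread between these arrays, part of which may be technical.

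Enteroendocrine cells arise from crypt progenitors through the transcription factor Neurogenin 3 and keep their products in dense-core granules. Granins such as chromogranins and secretogranins pack the granule, peptide precursors are cut by prohormone convertases and trimmed by carboxypeptidase E, and a calcium signal releases the content. Different cells of the lineage make serotonin, cholecystokinin, secretin, the glucose-dependent insulinotropic polypeptide or tachykinins, and hormone transcripts at low level have been described in crypt cells that also carry stem cell markers.

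The promoters of 5 of the genes are shown because 2 granin promoters share 1 motif and 3 peptide precursor promoters share another. The sequences are RefSeq promoters of build GRCm38.p6, each with 250 bases before and 50 bases after the annotated gene start, matched by symbol for 9 of the 10 genes (10 promoters, since Tph1 has 2). They are written in the direction of transcription, and capitals mark the motifs found.
Chgb, chr2:132781392-132781691, strand +: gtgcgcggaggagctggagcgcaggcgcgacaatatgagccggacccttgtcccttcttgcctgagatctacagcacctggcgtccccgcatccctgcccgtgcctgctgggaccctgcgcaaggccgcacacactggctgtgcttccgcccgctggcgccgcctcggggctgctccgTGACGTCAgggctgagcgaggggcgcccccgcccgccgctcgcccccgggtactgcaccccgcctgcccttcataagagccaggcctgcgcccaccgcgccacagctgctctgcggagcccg
Scg2, chr1:79439977-79440276, strand -: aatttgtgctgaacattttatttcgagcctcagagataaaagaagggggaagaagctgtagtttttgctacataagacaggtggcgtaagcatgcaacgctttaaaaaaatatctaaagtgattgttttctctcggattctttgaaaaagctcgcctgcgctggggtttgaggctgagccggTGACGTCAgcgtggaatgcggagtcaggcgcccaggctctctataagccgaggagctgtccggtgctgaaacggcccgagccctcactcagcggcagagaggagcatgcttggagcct
Tac1, chr6:7554811-7555110, strand +: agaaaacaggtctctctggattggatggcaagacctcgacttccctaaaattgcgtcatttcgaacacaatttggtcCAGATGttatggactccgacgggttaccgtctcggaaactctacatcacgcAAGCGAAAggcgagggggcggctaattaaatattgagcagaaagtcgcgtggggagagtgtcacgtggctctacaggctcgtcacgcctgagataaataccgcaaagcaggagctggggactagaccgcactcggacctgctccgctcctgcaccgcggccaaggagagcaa
Cck, chr9:121495645-121495944, strand -: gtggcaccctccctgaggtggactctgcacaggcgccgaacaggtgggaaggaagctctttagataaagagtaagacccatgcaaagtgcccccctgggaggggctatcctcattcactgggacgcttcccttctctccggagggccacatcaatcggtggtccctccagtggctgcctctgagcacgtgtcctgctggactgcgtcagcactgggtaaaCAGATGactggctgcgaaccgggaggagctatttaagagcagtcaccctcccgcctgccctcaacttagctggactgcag
Sct, chr7:141279084-141279383, strand -: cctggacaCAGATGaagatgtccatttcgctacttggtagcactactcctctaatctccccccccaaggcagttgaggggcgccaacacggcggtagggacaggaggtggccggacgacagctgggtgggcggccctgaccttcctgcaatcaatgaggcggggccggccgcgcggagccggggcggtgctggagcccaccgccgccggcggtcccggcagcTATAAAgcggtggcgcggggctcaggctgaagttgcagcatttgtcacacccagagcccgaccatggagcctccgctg
Both strands were searched for each motif. The cAMP response element TGACGTCA, a palindrome bound by CREB family factors, was found in Chgb and Scg2, starting 72 bases (Chgb) and 68 bases (Scg2) before the gene start, and is present in 1.79% of 32851 RefSeq promoters of the same length. Only exact matches are counted, and the Chga promoter holds TGACGTAA, which differs from this element by 1 letter. The E-box CAGATG, of the kind bound by basic helix-loop-helix factors such as NeuroD1, was found in Tac1, Cck and Sct, and in 17.15% of all promoters. It starts 173, 30 and 242 bases before the gene start in Tac1, Cck and Sct. The Sct promoter also holds the TATA box TATAAA, present in 13.62% of all promoters, which starts 28 bases before the gene start, and the TATAAA in Chga lies after the start. The core bound by interferon regulatory factors, AANNGAAA, was found in 1 of the 10 promoters, that of Tac1, starting 122 bases before the gene start, and in 23.92% of all promoters. None of these matches overlaps another. This core was chosen after the promoters had been searched for longer interferon-response and neuron-restrictive motifs, which are not reported here. A match describes letters only, and the windows are short.

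Transcripts of the granule and hormone genes were at lower signal in Ifnar1-/- sorts than in control sorts on both slides for each of the 8 genes well above background on all 4 arrays, as were 26.7% of all genes with that property. The ninth gene that passed the filter, Gip, did so only through control. The carboxypeptidase gene Cpe was 2.26-fold lower, Chga 1.85-fold lower, Chgb 1.76-fold lower and Tac1 1.62-fold lower, while the granin genes Scg2 and Scg3 were 1.20-fold and 1.19-fold lower. None of the 9 passed Benjamini-Hochberg adjustment over all genes in limma, either without a slide term or with the slide as a replicate block. Chgb came nearest, with the block (limma, adjusted p = 0.0557, but 0.496 with the block and no intensity trend). The differences of 4 genes, Chgb, Cpe, Tac1 and Sct, were lower by more than 0.5 on the log2 scale on both slides (2.63% of all genes tested), and for 5 genes the samples of either genotype did not overlap those of the other (11.5% of all genes tested were lower in this way).

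**Figure D1:**
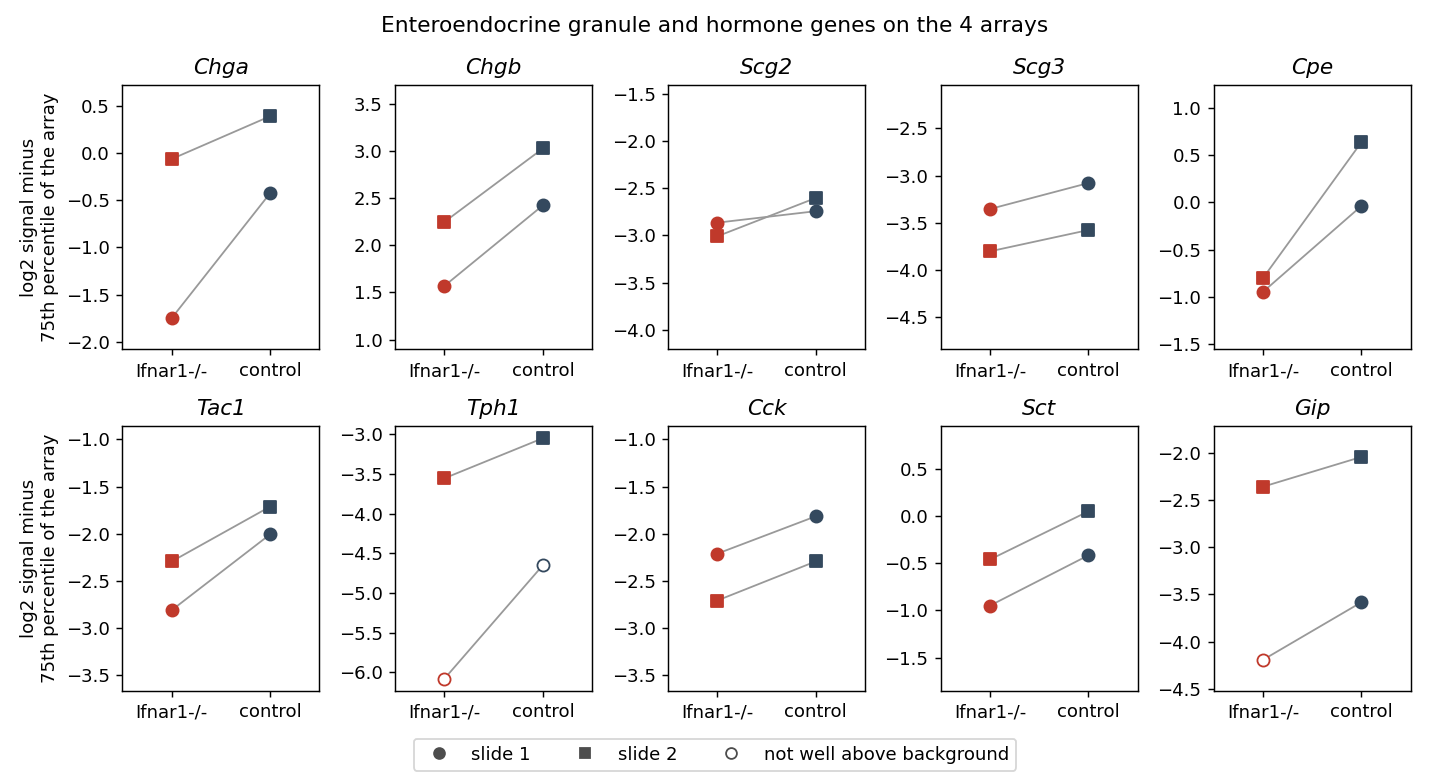
Log2 spot signal of each gene on the 4 arrays, relative to the 75th percentile of the array, with Ifnar1-/- at the left and control at the right of each panel. Lines join the arrays of 1 slide, and open symbols mark signal not well above background. Each line slopes upward towards control, and all genes but Scg2, Scg3 and Cck are lower on slide 1 than on slide 2 in both genotypes.

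All levels that follow are log2 processed signal minus the 75th percentile of the array, and all differences are Ifnar1-/- minus control. Levels are not compared between probes. A probe passed the filter when its signal was well above background, by the scanner software's flag, on both arrays of at least 1 genotype. Gip passed only through the control arrays, and the other 8 genes were well above background on all 4 arrays. In bulk RNA, fewer cells of a type and less RNA per cell cannot be told apart.

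The granins were examined first, since they fill the granule of most enteroendocrine cells. Chgb, which encodes chromogranin B, had 1.57 and 2.25 in Ifnar1-/- samples 1 and 2, against 2.42 and 3.02 in control samples 1 and 2. Both Ifnar1-/- samples lay below both control samples. The difference was -0.81, made up of -0.85 on slide 1 and -0.78 on the other slide (limma with slide block, SE 0.09, adjusted p = 0.0557; without the block, SE 0.32, adjusted p = 1.00). With the block and no intensity trend, limma gave Chgb an adjusted p of 0.496. The difference was -0.48 without Ifnar1-/- sample 1 and -0.51 without control sample 2, and -1.15 and -1.12 without the other sample of those genotypes. The probe of Chgb was spotted 10 times on each array, which gives a technical spread beside the comparison of genotypes. The 10 spots had an SD of 0.09 and 0.06 on Ifnar1-/- arrays 1 and 2, and of 0.08 and 0.06 on control arrays 1 and 2. On slide 1 the spots ran from 1.35 to 1.67 in the Ifnar1-/- sample and from 2.26 to 2.49 in the control sample. On slide 2 they ran from 2.13 to 2.32 in the Ifnar1-/- sample and from 2.90 to 3.11 in the control sample. Spots of 1 array are not replicates of the genotype, and the ranges of the genotypes were apart on either slide, whereas across slides Ifnar1-/- sample 2 reached the spots of control sample 1.

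**Figure D2:**
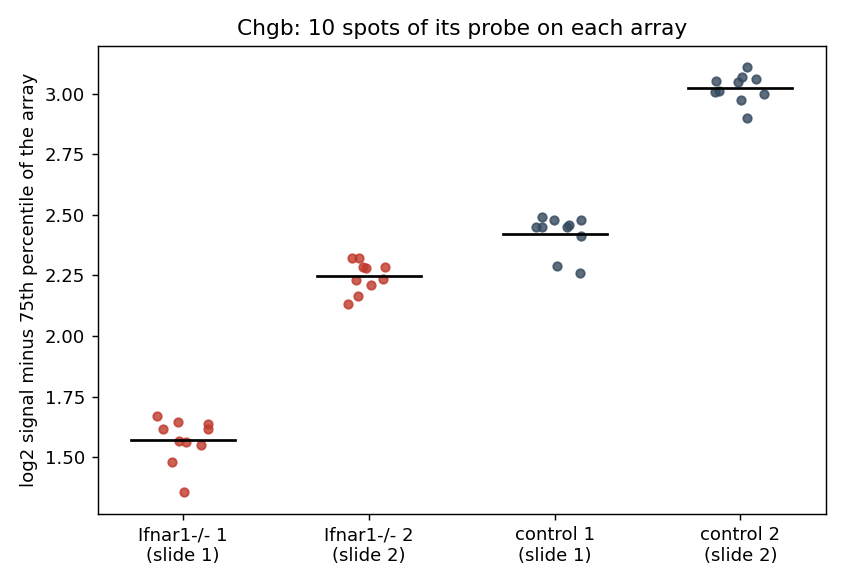
Log2 signal of the 10 spots of the Chgb probe on each array, with bars at the mean. The means are 1.57 and 2.25 on the Ifnar1-/- arrays and 2.42 and 3.02 on the control arrays, and the genotypes are apart within each slide.

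Chga, which encodes chromogranin A, had -1.75 and -0.07 in Ifnar1-/- samples 1 and 2, against -0.43 and 0.39 in control samples 1 and 2. The genotypes overlapped, because Ifnar1-/- sample 2 was above control sample 1. The difference was -1.32 on slide 1 and -0.45 on slide 2, with a mean of -0.89 (limma with slide block, SE 0.24, adjusted p = 0.292). Without Ifnar1-/- sample 1 the difference was -0.05, and without Ifnar1-/- sample 2 it was -1.73. Slide 2 exceeded slide 1 by 1.68 in Ifnar1-/- samples and by 0.82 in control samples.

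Scg2, which encodes secretogranin II, had -2.87 and -3.01 in Ifnar1-/- samples, against -2.74 and -2.61 in control samples. The genotypes did not overlap, yet the difference of -0.26 was within its error (limma with slide block, SE 0.27, adjusted p = 0.726). Scg3, which encodes secretogranin III, a protein that binds chromogranin A to the granule membrane, had -3.35 and -3.80 in Ifnar1-/- samples, against -3.08 and -3.58 in control samples. The genotypes overlapped, and the difference of -0.25 was also within its error (limma with slide block, SE 0.33, adjusted p = 0.788). It was -0.03 without Ifnar1-/- sample 2 and -0.0014 without control sample 1, and -0.47 and -0.50 without the other sample of those genotypes. With normexp background correction, an offset of 50 and quantile scaling, changed together, Scg3 differed by 0.000482. Which of these changes moved the value was not tested.

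Cpe, the carboxypeptidase that removes basic residues from cut prohormones, had the greatest difference among the 9. Its brightest probe had -0.95 and -0.80 in Ifnar1-/- samples, against -0.04 and 0.63 in control samples. The genotypes did not overlap. The difference was -0.91 on slide 1 and -1.44 on slide 2, with a mean of -1.17 (limma with slide block, SE 0.18, adjusted p = 0.113; without the block, unadjusted p = 0.00884 and adjusted p = 1.00). Cpe was the only gene of the 10 with several probes. A second probe had -1.36 and -0.59 in Ifnar1-/- samples against -0.76 and 0.35 in control samples, which is a mean difference of -0.77. Its genotypes overlapped, because Ifnar1-/- sample 2 was above control sample 1. The remaining probe was not well above background on any of the 4 arrays, so it gives no difference.

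Among the peptide precursors, Tac1, from which substance P and neurokinin A are cut, had -2.81 and -2.29 in Ifnar1-/- samples, against -2.01 and -1.71 in control samples. The genotypes did not overlap. The difference was -0.80 on slide 1 and -0.58 on slide 2, with a mean of -0.69 (limma with slide block, SE 0.23, adjusted p = 0.357). It was -0.43 without Ifnar1-/- sample 1. Enteric neurons also make tachykinins, and of 12 neuronal markers 7 were not well above background on any array, among them Ret and Chat. Of the 3 neuronal markers that passed the filter, Elavl4 and Tubb3 were well above background on every array. Elavl4 had 6.12 and 6.07 in Ifnar1-/- samples against 6.27 and 6.19 in control samples. Elavl4 differed by -0.13 and Tubb3 by 0.20. Prph was not well above background in Ifnar1-/- sample 1 and passed only through control, and on slide 2 it differed by -0.09.

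Sct, the precursor of secretin, which drives bicarbonate secretion, had -0.95 and -0.46 in Ifnar1-/- samples, against -0.42 and 0.05 in control samples. The highest Ifnar1-/- sample lay just under the lowest control sample. The slides gave nearly equal differences of -0.53 and -0.51 (limma with slide block, mean -0.52, SE 0.14, adjusted p = 0.306). The difference was -0.28 without Ifnar1-/- sample 1 and -0.29 without control sample 2.

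Cck, the precursor of cholecystokinin, had -2.21 and -2.71 in Ifnar1-/- samples, against -1.82 and -2.29 in control samples. The genotypes overlapped, since Ifnar1-/- sample 1 was above control sample 2. Within slides the differences were -0.40 and -0.41 (limma with slide block, mean -0.40, SE 0.23, adjusted p = 0.512). The difference was -0.16 without Ifnar1-/- sample 2 and -0.17 without control sample 1. Cck and Scg3 were lower on slide 2 than on slide 1 in both genotypes, opposite to Chga, Chgb, Cpe, Tac1, Sct and Gip.

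Gip, the precursor of an incretin that enhances insulin release, was the most slide-dependent gene of the 9. It had -4.19 and -2.36 in Ifnar1-/- samples, against -3.58 and -2.05 in control samples, and Ifnar1-/- sample 1 was not well above background. Slide 2 exceeded slide 1 by 1.83 in Ifnar1-/- samples and by 1.54 in control samples. The difference between genotypes was -0.61 on slide 1 and -0.32 on the other (limma with slide block, mean -0.46, SE 0.29, adjusted p = 0.562). It was 0.45 without Ifnar1-/- sample 1 and 0.31 without control sample 2.

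Tph1, the tryptophan hydroxylase that starts serotonin synthesis in enterochromaffin cells, was well above background only on slide 2. There it had -3.55 in the Ifnar1-/- sample and -3.05 in the control sample, a difference of -0.50 with no replicate. On slide 1 its probe read -6.08 in the Ifnar1-/- sample and -4.65 in the control sample, both under the lowest signal called well above background on those arrays (-4.26 and -4.54), so no difference is given. With no signal filter Tph1 entered the fit and did not pass (limma without a slide term, adjusted p = 1.00). Mast cells also make serotonin. Of 9 mast cell markers with a probe, 5 were not well above background on any array, namely Mcpt1, Mcpt2, Mcpt4, Cpa3 and Fcer1a. Kit and Tpsb2 were well above background on every array. Kit had 0.94 and 1.61 in Ifnar1-/- samples against 1.24 and 1.54 in control samples. Tpsb2 had -0.39 and -0.93 against -0.26 and -0.50.

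**Figure D3:**
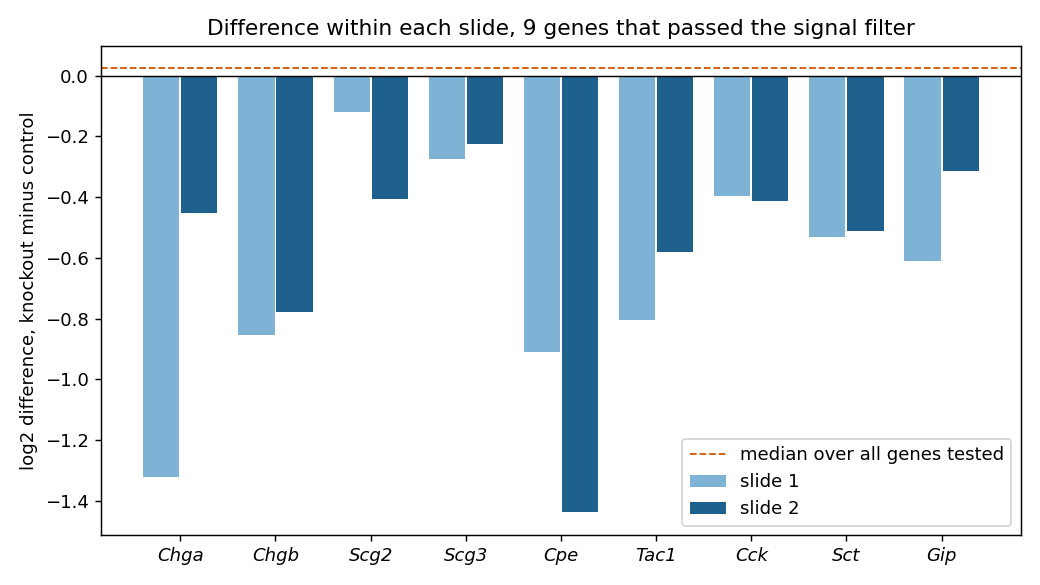
Difference in log2 signal, Ifnar1-/- minus control, within slide 1 (light bars) and slide 2 (dark bars) for the 9 genes that passed the filter, with the median over all genes tested as a dashed line. All bars lie below 0, from -0.12 (Scg2, slide 1) to -1.44 (Cpe, slide 2).

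Read as a set, the 9 genes had a median difference of -0.52, against 0.02 over all 24862 genes tested. On slide 1 the median was -0.61, the value of Gip, whose Ifnar1-/- signal there was not well above background. It was -0.45 on slide 2. The median of the set was -0.95 without Ifnar1-/- sample 2, -0.43 without Ifnar1-/- sample 1, -0.84 without control sample 1 and -0.50 without control sample 2. It was -0.33 with normexp background correction, an offset of 50 and quantile scaling. Leaving out Gip, which could pass only through control, the 8 genes well above background on all 4 arrays had a median of -0.61. All 8 were lower on both slides, as were 26.7% of the 23026 genes with that property, and 5 of the 8 had genotypes that did not overlap, against 10.8%. None of the 8 was higher on both slides (34.3% of those genes) or higher without overlap (14.1%). Over all genes tested, with Gip, the shares were 27.3% lower on both slides and 11.5% without overlap, and 4 of 9 genes beyond 0.5 on both slides stood against 2.63%. In the other direction those shares were 33.9%, 14.5% and 2.06% of all genes, and 0 of the 9. No test of the set was made, since its genes were chosen with earlier results of these data known. Limma without a slide term called 0 of the 9 lower (0% of all genes), and 2 of 9, Cpe and Chgb, had an unadjusted p under 0.05 with a lower level (1.72% of all genes), and 0 with a higher one (1.04%). With the slide block limma called 0 of 9 (0.33% of all genes lower and 0.0322% higher), and 5 of 9, Chga, Chgb, Cpe, Tac1 and Sct, were lower at an unadjusted p under 0.05 (4.93% of all genes), and 0 higher (7.31%). Leaving out 1 array, limma without a slide term called between 9 and 88 genes lower, and 0 of these genes in any such fit.

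The differences between slides set the scale for these values. Over all genes tested, the median absolute difference between the slides was 0.35 in Ifnar1-/- samples and 0.34 in control samples, and that between genotypes within slides was 0.20. The targeted gene was lower under the knockout label: Ifnar1 had -1.76 and -2.28 in Ifnar1-/- samples, against -0.21 and -0.37 in control samples (limma with slide block, difference -1.73, adjusted p = 0.0494, but 0.477 without it). With the block and no intensity trend limma called 0 genes, and this holds for every call named below. Where its probes lie with respect to the disrupted region is unknown here, so this checks the label only in part. Lgr5, the gene used for the sort, had 3.32 and 2.93 in Ifnar1-/- samples, against 3.04 and 2.82 in control samples.

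Other gut hormones lay on either side of 0. Of 15 on the list, 11 passed the filter, and 0 passed limma with or without the slide block. On both slides 4 were lower and 3 higher (27.3% and 33.9% of all genes), and 4 were lower and 1 higher without overlap (11.5% and 14.5%). Their median difference was 0.06, but -0.12 within slide 1 and -0.13 within slide 2. It was 0.37 without Ifnar1-/- sample 2, -0.30 without Ifnar1-/- sample 1, -0.16 without control sample 1 and -0.20 without control sample 2, so its sign was not settled. Nucb2, the precursor of nesfatin, had -2.88 and -2.04 in Ifnar1-/- samples against -0.95 and -0.67 in control samples (limma with slide block, difference -1.65, adjusted p = 0.0856). Gcg, from which intestinal L cells make glucagon-like peptides, had -2.86 and -1.51 in Ifnar1-/- samples against -1.21 and -0.91 in control samples (difference -1.12, limma with slide block, adjusted p = 0.287). Pyy, the peptide YY gene of L cells, differed by -0.55, and Gast, the gastrin gene, by 0.32. Sst, the somatostatin gene, was named after its values were seen. It differed by -1.22 on slide 2, and on slide 1 its control signal was not well above background, so no difference is given there.

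Genes of granule processing and exocytosis were also divided. Of 29 listed, 24 passed the filter, and 8 were lower and 5 higher on both slides (27.3% and 33.9% of all genes). In either limma fit 0 passed, and the median was -0.07 (0.02 on slide 1, -0.19 on slide 2). Of the 8 lower genes, Cadps and Syt13, the latter named after its values were seen, passed only through control. Slc18a1, the vesicular transporter that loads serotonin into granules, had -2.96 and -1.29 in Ifnar1-/- samples, against -1.03 and -0.40 in control samples. Its genotypes did not overlap (limma with slide block, difference -1.41, adjusted p = 0.212). Cadps, a priming factor for dense-core granules, differed by -1.29 with signal well above background on 1 of the 2 Ifnar1-/- arrays. Rab27a, a small GTPase of granule docking, differed by -0.76, and Ddc, the decarboxylase that completes serotonin synthesis, by -0.23. The prohormone convertase genes Pcsk1 and Pcsk2, named for their role with Cpe after their values were seen, differed by 0.18 and -0.24.

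Transcription factors of the lineage had a median of 0.02. Of 21 listed, 13 passed the filter. On both slides 3 of them were lower and 5 higher (27.3% and 33.9% of all genes), and 0 passed limma in either fit. Of those listed with a probe, 7 were not well above background on any array, among them Pax4, Isl1 and Rfx6. Rfx3, a factor of endocrine maturation in pancreatic islets, had -0.32 and -0.41 in Ifnar1-/- samples against 0.23 and 0.01 in control samples (limma with slide block, difference -0.48, adjusted p = 0.318). Pdx1, the duodenal and pancreatic homeobox factor, had 1.66 and 1.18 in Ifnar1-/- samples against 0.69 and 0.75 in control samples (difference 0.70, limma with slide block, adjusted p = 0.256). Lmx1a, a factor of serotonin cells, differed by -0.82 with 1 of the 2 Ifnar1-/- arrays well above background, and Foxa2 by 0.17. Lmx1a, counted among the 3 lower on both slides, passed only through control. Neurog3, which starts the lineage, and Neurod1, its target, were named after their values were seen and differed by -0.21 and 0.36.

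Nutrient receptors and excitability genes had a median of 0.10 over 10 measured of 16, with 0 passing limma in either fit. On both slides 0 were lower and 4 higher (27.3% and 33.9% of all genes). Cacna1a, a voltage-gated calcium channel, had -0.34 and -0.60 in Ifnar1-/- samples against -1.67 and -1.85 in control samples (limma with slide block, difference 1.29, adjusted p = 0.0748). Abcc8, the sulphonylurea receptor, differed by 0.18, the calcium-sensing receptor gene Casr by 0.25 and the fatty acid receptor gene Ffar2 by -0.37.

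**Figure D4:**
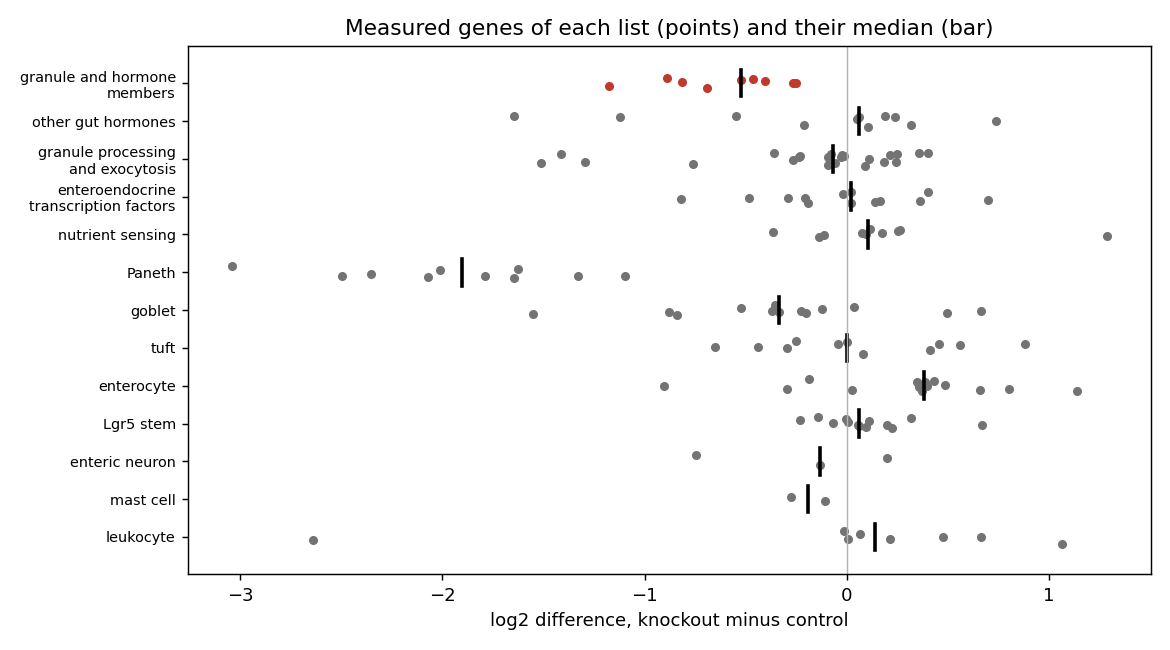
Difference in log2 signal, Ifnar1-/- minus control, of every gene of each list that passed the filter, with bars at the list median. The granule and hormone genes lie between -1.17 and -0.25, the Paneth markers between -3.04 and -1.10, and the other enteroendocrine lists on both sides of 0.

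Markers of the other cell types that a sort could hold were read from the same fits. The Paneth cell markers, 10 of 17 with a named probe, were each lower on slide 1 and slide 2 (27.3% of all genes). With the slide block limma called 7 of them lower (0.33% of all genes), without it 0, and their median was -1.90. Their summed level, in multiples of the 75th percentile of the array, was 137 and 231 in Ifnar1-/- samples against 534 and 654 in control samples. The colipase gene Clps fell 8.23-fold, Ang4 5.64-fold, Defa3 3.13-fold and Itln1 3.09-fold (adjusted p-values of 0.005, 0.005, 0.00779 and 0.0066 from limma, slide block included; 0.282, 0.224, 0.414 and 0.949 without it). Of 13 goblet markers measured, 7 were lower and 1 higher on both slides (27.3% and 33.9% of all genes). In either fit 0 passed, and summed levels were 141 and 191 in Ifnar1-/- samples against 178 and 186 in control samples. The goblet median was -0.33, with -0.46 on slide 1 and -0.05 on slide 2, and it was -0.02 without Ifnar1-/- sample 1 and -0.58 without Ifnar1-/- sample 2. Spink4 differed by -1.55, Spdef by -0.84, Galnt12 by -0.33 and Zg16 by 0.50. Of 14 enterocyte markers, 10 were higher and 3 lower on both slides (33.9% and 27.3% of all genes). Their median was 0.38, with 0 passing in either fit. Lct, counted among the 10 higher and named after its values were seen, passed only through Ifnar1-/-. Summed levels were 77.4 and 84.4 in Ifnar1-/- samples against 57.8 and 67.5 in control samples. Alpi differed by 1.14, Apoa4 by 0.80, Fabp2 by 0.49 and Anpep by -0.90.

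The 11 measured tuft markers had a median of 0.00133 with 0 passing, and Pou2f3, Alox5ap and Cd24a differed by 0.56, 0.41 and -0.25. The 13 stem cell markers had a median of 0.06 with 0 passing in either fit, and summed levels of 162 and 180 in Ifnar1-/- samples against 161 and 182 in control samples. Tnfrsf19, Ascl2 and Aqp4 differed by 0.67, 0.23 and -0.23. Of 8 leukocyte markers, 1 fell with the slide block, Lyz2 (6.24-fold, limma with slide block, adjusted p = 0.00821, but 0.293 without it), whose sequence is close to that of the Paneth lysozyme Lyz1. Gzma and Cd8a differed by 1.06 and 0.67, and the list median was 0.14. Gzmb, which counts in that median, differed by 0.48 but passed only through Ifnar1-/-, with 1 control array well above background. The mast cell genes Kit and Tpsb2 differed by -0.11 and -0.28. The part that these cell types had in the values of the granule and hormone genes was not tested.

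The 3 genes with a profile most like the mean of the 8 granule and hormone genes over the 4 arrays were Lgi4, Enpp4 and Arap2. Likeness was the root mean square difference between centred log2 profiles, at 0.0109, 0.0248 and 0.0342, among 13857 named genes well above background on all 4 arrays. The mean centred profile was -0.46 and -0.16 in Ifnar1-/- samples and 0.19 and 0.44 in control samples. Profiles over 4 arrays carry little information, and with so many candidates some lie close.

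**Figure D5:**
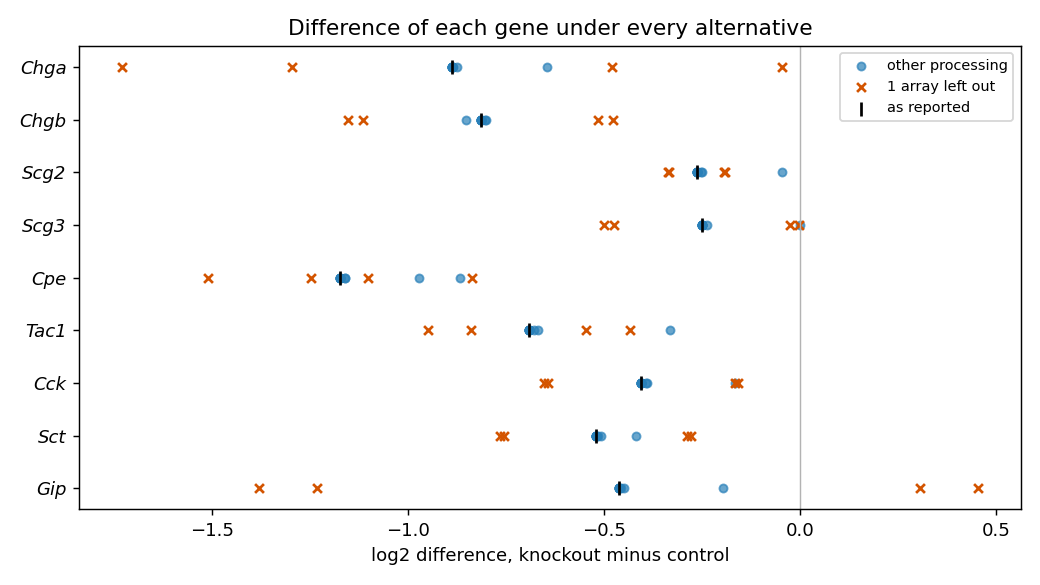
Difference in log2 signal, Ifnar1-/- minus control, of each of the 9 genes as reported (black tick), under other processing (blue points) and with 1 array left out (orange crosses). Chgb, Cpe, Tac1, Sct, Cck, Chga and Scg2 stay below 0 throughout, while Gip and Scg3 reach or cross it.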

How the data were processed

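Total RNA (20 ng) from each of the 4 sorted samples was amplified and labelled with a single dye, per the labels' protocols. The deposited scanner tables hold background-subtracted spot intensity, which per the file headers came from Agilent Feature Extraction 12.0.3.1 (11.5.1.1 per the submitters' processing notes), with array annotation on build mm9. The deposited series table is that intensity multiplied by 1 constant per array (5.60 to 6.68), whose target remains unknown, without centring. Its column medians were 239 and 223 in Ifnar1-/- samples and 249 and 231 in control samples.

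Control spots and 111 to 172 outlier spots per array were left out, spots of a probe were averaged as log2 values, and the 75th percentile of each array was subtracted. Between 63.3% and 67.7% of spots were well above background and 0 were saturated, and the number of arrays limits precision. RefSeq accessions, without versions, named 28331 of 55681 probes through the GRCm38.p6 gene table. A gene was represented by its brightest kept probe with values on all arrays. Groups were compared with limma 3.58.1 in R 4.3.3 with an intensity trend, without a slide term and with the slide (the replicate number) as a block, adjusted over all genes at 0.05. The slide block leaves 1 residual degree of freedom. Samples on a slide deviated together (Pearson r = 0.563 across genes). Fits were tested on simulated data. The genes and lists were chosen with earlier results of these data known. Named genes were the 10, Ifnar1, Lgr5, up to 4 per list by smallest slide-block p, and 3 nearest profiles; values of 1 such gene are not reported here. Normexp ran on the median signal, since the mean signal column was not used here.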

Additional observations from a re-analysis of the deposited data

How the results depend on the processing

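With the slide as a replicate block, limma called 82 genes lower and 8 higher over all genes, against 0 and 0 without it, and 0 of both with the block and no intensity trend. Leaving out 1 array, the fit without a block called 9 (without Ifnar1-/- sample 1), 18 (without control 1), 71 (without control 2) and 88 (without Ifnar1-/- sample 2) genes lower, and 0 to 3 higher. None of the 9 granule and hormone genes was called by limma under any of the 15 alternatives. Their median difference of -0.52 was -0.33 with normexp background correction (offset 50, with quantile scaling). It was -0.61 over 10 genes with no filter on dim probes, where Tph1 entered. It was also -0.61 over the 8 genes well above background on all 4 arrays. Either of these settings changes the set of genes. Over the 9 genes the median was -0.61 within slide 1, the value of Gip, and -0.45 within slide 2. It ran from -0.95 to -0.43 when 1 array was left out. The sign turned for Scg3 with normexp (0.000482, adjusted p = 1) and for Gip with 1 array left out (from -1.38 to 0.45, with 0.31 without control sample 2). The cause was not tested. The other 7 genes stayed lower in all 15. The median over all genes stayed between -0.03 and 0.08 under the alternatives. Dim signal limits Tph1, Gip and the third of the Cpe probes.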
